A study of Homo sapiens with 6 samples.

Results

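Fat cell formation was followed here through 10 genes of the adipogenic lineage, namely ZNF423, CEBPB, CEBPD, PPARG, CEBPA, PLIN2, FABP4, LPL, CD36 and ADIPOQ. They were chosen by name for their known roles in adipocyte commitment, differentiation and function, and make up 10 of the 28181 genes listed for every library. The cells were UE7T-9, a human bone marrow mesenchymal stem cell (MSC) line immortalized with hTERT and the E7 gene of human papillomavirus. The RNA of 3 UE7T-9 SHC4 libraries was compared with that of 3 UE7T-9 Cont libraries, the controls below, all grown in D-MEM with serum. No adipogenic medium is named for either group. UE7T-9 SHC4 cells carried a lentiviral vector in which the CMV promoter drove SHC4, a member of the Shc family of signaling adaptors. For UE7T-9 Cont, the methods describe the same vector with GFP, whereas the labels give a nontarget control of WT genotype. Both groups carry hTERT and E7, and whether the 3 libraries of a group came from separate cultures, infections or clones is not settled by the sources used here. The labels call each library a biological replicate (bio rep) without saying of what kind. The p-values below therefore measure only the spread between these libraries, which may not cover separate infections or clones.

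MSCs can become adipocytes, osteoblasts or chondrocytes. In the usual sequence of adipogenesis, ZNF423 marks committed preadipocytes, C/EBPβ and C/EBPδ (encoded by CEBPB and CEBPD) appear early, and they switch on PPARG and CEBPA, which then maintain each other. PPARγ and C/EBPα turn on genes of the mature adipocyte, such as those for lipid uptake (LPL, CD36), fatty acid transport within the cell (FABP4), lipid droplets (perilipins) and the secreted hormone adiponectin (ADIPOQ).

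The values are normalized counts, in which the gene count of a library is divided by a single factor for that library. All values were whole multiples of the value of 1 read in their library, so the reads could be recovered, and the libraries held between 18144993 and 27721397 of them. SHC4 itself had 56.5, 157 and 130 normalized counts in the controls, against 134870, 119170 and 155010 in UE7T-9 SHC4, which matches the labels. The MSC markers THY1, NT5E, ENG, ALCAM, CD44, VIM, PDGFRB and COL1A1 were detected in both groups, with a summed normalized count of 144000 to 400490 in UE7T-9 Cont and 216380 to 370920 in UE7T-9 SHC4. COL1A1 carried most of the sum in 5 of the 6 libraries. UE7T-9 Cont replicate 1 stood apart from the other controls, since its log2 values correlated more closely across genes with UE7T-9 SHC4 replicate 1 (Pearson 0.974) than with control replicate 2 (0.967) or 3 (0.962). Differences were tested with limma on log2(normalized count + 1) for 23040 genes (mean of 1 or more). Genes were called where the adjusted p was below 0.05 and the log2 fold change was past 1 in either direction. The added 1 shrinks the changes of genes with few reads.

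Members of the C/EBP family bind DNA as dimers, and the PPARG and CEBPA promoters are among their known targets. Promoter sequence from RefSeq (GRCh38.p14) was at hand for 7 of the 10 genes. The windows shown here cover 250 bases before a transcript start of the transcription factors PPARG, CEBPA and CEBPB, to give the sequence context of the factors whose RNA is compared below. The PPARG window, chr3:12351167-12351416 on the + strand, belongs to the most downstream of its 6 listed starts. The CEBPA window is chr19:33302535-33302784 on the - strand, and the CEBPB window, at the most downstream of 2 starts, is chr20:50190580-50190829 on the + strand. Each runs 5′ to 3′, and capitals mark a match to a C/EBP motif in PPARG and to a TATA box in CEBPA and CEBPB.
PPARG: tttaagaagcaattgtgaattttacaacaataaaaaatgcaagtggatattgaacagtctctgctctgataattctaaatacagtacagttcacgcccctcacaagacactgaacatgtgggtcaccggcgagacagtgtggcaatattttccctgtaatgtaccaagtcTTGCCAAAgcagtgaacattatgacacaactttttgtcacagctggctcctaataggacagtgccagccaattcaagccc
CEBPA: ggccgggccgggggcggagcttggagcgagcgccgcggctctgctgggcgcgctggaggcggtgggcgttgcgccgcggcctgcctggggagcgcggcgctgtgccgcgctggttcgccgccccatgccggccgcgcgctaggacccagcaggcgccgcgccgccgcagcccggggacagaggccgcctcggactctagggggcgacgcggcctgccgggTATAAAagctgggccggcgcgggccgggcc
CEBPB: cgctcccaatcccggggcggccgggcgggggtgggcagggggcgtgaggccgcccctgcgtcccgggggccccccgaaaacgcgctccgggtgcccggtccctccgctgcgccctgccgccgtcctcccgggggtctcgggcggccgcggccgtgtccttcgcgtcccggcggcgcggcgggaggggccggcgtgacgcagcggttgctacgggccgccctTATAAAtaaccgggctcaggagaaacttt

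The C/EBP motif was searched as TTGCNNAA or, on the other strand, TTNNGCAA. It was found in 9.05% of all 35116 promoter windows of this length, and in 1 of the 19 windows of these genes, the PPARG window above, at position -80 relative to the transcript start. TATAAA or TTTATA occurred in 10.7% of all windows and in 7 windows of 5 of these genes, at position -30 in the CEBPA window and at position -29 in the CEBPB window shown. AGGTCA or TGACCT, the core bound by PPARγ and many other nuclear receptors, occurred in 12.1% of all windows and in 3 windows of these genes, all of PPARG. These matches describe the letters and were not measured as binding sites.

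None of the adipogenic lineage genes passed the threshold when all 6 libraries were compared. With limma, 0 of the 9 genes tested were called, where 0.0608% of all genes tested were. With DESeq2 on the recovered reads, 0 of the 8 genes with an adjusted p were called, beside 2.2% of all genes, and none passed on adjusted p alone, beside 4.14% of all genes. With edgeR, 0 of 8 were called, beside 0.0631%. At an unadjusted p below 0.05, limma had 2 of 9 genes (CEBPD and FABP4), beside 14.4% of all genes tested. DESeq2 had the same 2 of the 10 it gave a p for, beside 10.4%, and edgeR had 2 of 8 (FABP4 and PPARG), beside 17.6%. The smallest adjusted p among them was 0.226 with limma, 0.104 with DESeq2 and 0.203 with edgeR, each time for FABP4. The values in each library also left CEBPD and FABP4 as the genes whose groups did not overlap. CEBPD was 1 of 9 tested genes with all UE7T-9 SHC4 values above all UE7T-9 Cont values, as in 9.13% of all genes, and FABP4 was 1 of 9 with all values below, as in 10.2%. An exact two-sided permutation test over the 20 assignments of 6 libraries cannot give a p below 0.1, which is what both genes had.

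**Figure D1:**
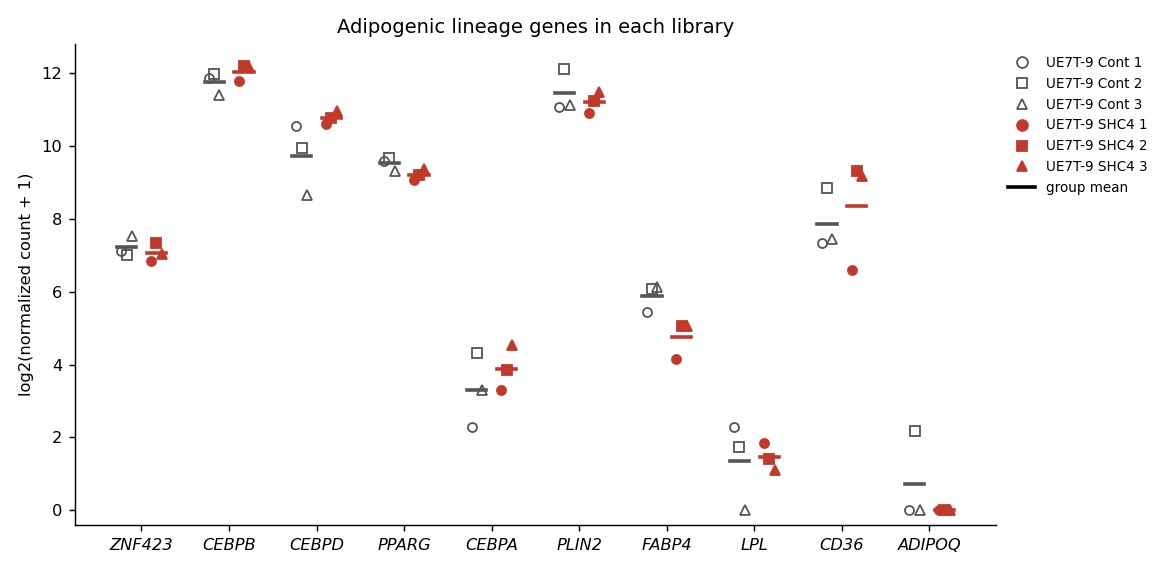
Normalized count of each adipogenic lineage gene on the log2(normalized count + 1) scale, with 1 symbol per library, open grey for UE7T-9 Cont, filled red for UE7T-9 SHC4, and a bar at the mean of the log2 values of each group. The groups of CEBPD and FABP4 are separated, those of the other tested genes overlap, and ADIPOQ is above 0 in a single control library.

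Among the genes at the start of the cascade, ZNF423, a zinc finger factor of preadipocyte commitment (ENSG00000102935, chr16:49487524-49857919 in GENCODE 29 on GRCh38), had 137, 128 and 185 normalized counts in the controls, against 115, 161 and 130.4 in UE7T-9 SHC4. The ranges overlapped. The group means, 150.2 ± 30.4 (SD, n = 3) in the controls and 135 ± 23.2 (SD, n = 3) in UE7T-9 SHC4, gave a log2 fold change of -0.14 (SE 0.22, 95% interval -0.63 to 0.35, limma adjusted p = 0.803).

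CEBPB (ENSG00000172216, chr20:50190734-50192689) was the most abundant of these genes. It had 3743, 4016 and 2723 normalized counts in the controls, against 3524, 4686 and 4576 in UE7T-9 SHC4. UE7T-9 Cont replicate 3 was the lowest library, and the lowest UE7T-9 SHC4 library lay within the control range. The log2 fold change was 0.29 (SE 0.18, 95% interval -0.11 to 0.70, limma adjusted p = 0.493), and was 0.13 without UE7T-9 Cont replicate 3. The library kit does not mark strand, so reads of CEBPB and of the antisense gene CEBPB-AS1 within it cannot be told apart by strand, and CEBPB-AS1 had mean normalized counts of 13.4 and 15.0 in the respective groups.

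CEBPD (ENSG00000221869, chr8:47736909-47739086), the early partner of CEBPB, differed more between the groups. It had 1513, 992 and 403 normalized counts in the controls, against 1552, 1749.7 and 2002 in UE7T-9 SHC4. All 3 UE7T-9 SHC4 libraries were above all controls, but UE7T-9 Cont replicate 1 was close to the lowest of them and the controls ranged widely. The mean was 969.5 ± 555 (SD, n = 3) in the controls, and that of UE7T-9 SHC4, 1768 ± 225 (SD, n = 3), was 1.82 times as high. The log2 fold change was 1.05 (SE 0.39, 95% interval 0.17 to 1.94), with an adjusted p of 0.278 in limma, 0.189 in DESeq2 and 0.311 in edgeR. Without UE7T-9 Cont replicate 1 it was 1.47 with a limma adjusted p of 0.0264 and, in DESeq2, 1.34 with an adjusted p of 0.000604, so that CEBPD passed both thresholds in both tests. In that comparison of 5 libraries, 1.59% of all genes were called higher by limma and 2.97% by DESeq2. Without UE7T-9 Cont replicate 3, the log2 fold change of CEBPD was 0.52 in limma.

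PPARG (ENSG00000132170, chr3:12287368-12434356), the nuclear receptor on which adipocyte differentiation depends, was readily detected in every library. The controls held 769, 810.0 and 639 normalized counts and the UE7T-9 SHC4 libraries 534, 585 and 656. A single UE7T-9 SHC4 library exceeded the lowest control. The group means, 739 ± 89.0 (SD, n = 3) in the controls and 592 ± 60.9 (SD, n = 3) in UE7T-9 SHC4, gave a log2 fold change of -0.32 (SE 0.14, 95% interval -0.64 to 0.0034) and an adjusted p of 0.352 in limma and 0.353 in DESeq2. The value stayed between -0.42 and -0.25 when any library was left out. CEBPA (ENSG00000245848, chr19:33299934-33302564), the partner of PPARG in the later step, was covered by few reads, with 3.90, 18.8 and 8.85 normalized counts in the controls, against 8.79, 13.3 and 22.1 in UE7T-9 SHC4. Most of these values lay in a shared range. The log2 fold change was 0.59, and its 95% interval, -0.78 to 1.95, left room for a change past the threshold upwards (SE 0.61, limma adjusted p = 0.703). It was 0.08 without UE7T-9 Cont replicate 1 and 1.09 without UE7T-9 Cont replicate 2.

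FABP4, PLIN2, LPL, CD36 and ADIPOQ serve fat handling or are products of the mature adipocyte. FABP4 (ENSG00000170323, chr8:81478419-81483263), the fatty acid binding protein of adipocytes and also of macrophages and some endothelium, had 42.9, 65.9 and 68.9 normalized counts in the controls, against 16.7, 32.5 and 32.6 in UE7T-9 SHC4. Every UE7T-9 SHC4 library was below every control. The mean was 59.2 ± 14.2 (SD, n = 3) in the controls, and that of UE7T-9 SHC4, 27.3 ± 9.14 (SD, n = 3), was 0.460 times as high. The log2 fold change was -1.12 in both limma (SE 0.36, 95% interval -1.94 to -0.30, adjusted p = 0.226) and DESeq2 (adjusted p = 0.104), so FABP4 did not pass. Without UE7T-9 Cont replicate 1, DESeq2 gave -1.31 with an adjusted p of 0.0339, past both thresholds. In that fit, DESeq2 called 5.57% of all genes in either direction and 2.97% higher. Over the libraries left out in turn, limma gave -1.34 to -0.81 and no call.

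FABP4 is also expressed by macrophages and some endothelium, and marker genes of both cell types were read. Of 7 macrophage markers, 6 were listed for the libraries. They summed to 150.1 to 154 normalized counts in UE7T-9 Cont and 108.3 to 118 in UE7T-9 SHC4. These sums, each over 6 genes, were above the count of FABP4 alone in every library. Of the 6 genes, 0 had an unadjusted p below 0.05 in limma, beside 14.4% of all genes tested. The groups of 1 of the 6 did not overlap (16.7%, beside 19.3% of all genes). The leukocyte gene PTPRC alone was at 6.82, 3.53 and 2.95 in the controls, against 2.64, 0.832 and 0 in UE7T-9 SHC4. The 6 endothelial markers summed to 63.9 to 83.8 and 52.7 to 101, with CDH5 at 0, 1.18 and 0 in the controls, against 0, 0 and 1.16 in UE7T-9 SHC4. The summed macrophage markers were lower in each UE7T-9 SHC4 library than in each control, as FABP4 was, and their part in the FABP4 values was not tested. In bulk RNA, fewer cells of a type and less RNA per cell cannot be told apart.

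PLIN2 (ENSG00000147872, chr9:19108375-19149290), the lipid droplet coat protein found in most cells that store lipid, was abundant. It had 2166, 4481 and 2231 normalized counts in the controls, against 1918, 2413 and 2865 in UE7T-9 SHC4. UE7T-9 Cont replicate 2 stood above all other libraries, which overlapped. The log2 fold change was -0.24 (SE 0.27, 95% interval -0.85 to 0.38, limma adjusted p = 0.739), and was 0.11 without UE7T-9 Cont replicate 2. CD36 (ENSG00000135218, chr7:80369575-80679277), a fatty acid translocase and scavenger receptor, varied widely within both groups, with 159.9, 458 and 173 normalized counts in the controls, against 95.8, 634 and 579 in UE7T-9 SHC4. Both the lowest and the highest library belonged to UE7T-9 SHC4. The log2 fold change of CD36 was 0.49 (SE 0.68, 95% interval -1.04 to 2.02, limma adjusted p = 0.785) and ranged from 0.02 to 1.37 when single libraries were left out. Of the endothelial markers, PECAM1 was at 7.80, 11.8 and 12.8 in the controls, against 9.67, 36.6 and 38.4 in UE7T-9 SHC4, and like CD36 was lowest in the library numbered 1 of both groups. The other markers of that list did not follow it, with VWF at a log2 fold change of -0.03, TEK at -1.46 and ESAM at -1.05, CDH5 and TIE1 at or near 0 in every library, and a median of -0.54 over the 4 tested.

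LPL (ENSG00000175445, chr8:19901717-19967259), the lipase that frees fatty acids from circulating triglyceride, was covered by 4, 2 and 0 reads in UE7T-9 Cont and by 3, 2 and 1 reads in UE7T-9 SHC4. ADIPOQ (ENSG00000181092, chr3:186842690-186858463), the adiponectin gene, had 3 reads in UE7T-9 Cont replicate 2 and 0 reads in the other 5 libraries, and its mean was too low to be tested. A count of 0 allows up to 3 reads, which corresponded to a normalized count of 2.50 to 3.53 depending on the library, so no fold change is given for LPL or ADIPOQ and no difference was detectable at this depth. Such a limit covers counting error only.

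**Figure D2:**
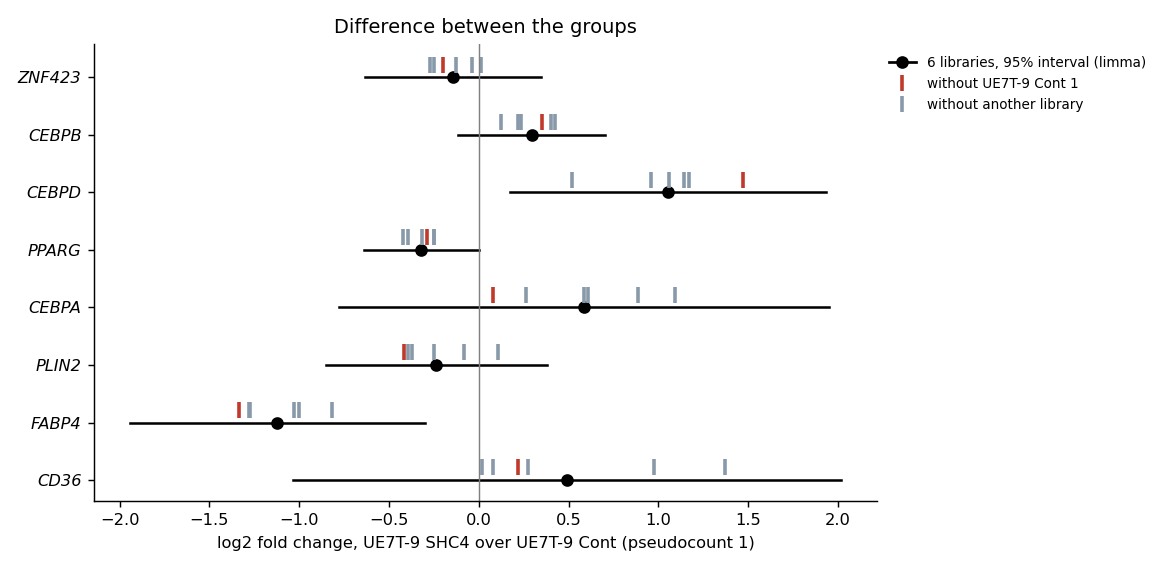
Log2 fold change of UE7T-9 SHC4 over UE7T-9 Cont for the 8 adipogenic lineage genes above the 3-read limit (limma), with its 95% interval (points and lines), and the value when a library was left out (ticks above the line, red for UE7T-9 Cont replicate 1). The intervals of CEBPD (0.17 to 1.94) and FABP4 (-1.94 to -0.30) do not include 0, but neither gene passed after adjustment over all genes, and the ticks of PLIN2 and ZNF423 fall on both sides of 0.

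Levels of different genes were compared per kilobase of exon, as normalized counts per kb. In UE7T-9 Cont the order was CEBPB (1786 ± 348, SD, n = 3), PLIN2 (582 ± 259), CEBPD (445 ± 255), PPARG (163 ± 19.6), FABP4 (42.4 ± 10.2), CD36 (24.2 ± 15.5), ZNF423 (16.7 ± 3.38), CEBPA (4.002 ± 2.89), LPL (0.476 ± 0.448) and ADIPOQ (0.255 ± 0.442). Neighbours whose libraries overlapped were PLIN2 and CEBPD, FABP4 and CD36, CD36 and ZNF423, and LPL and ADIPOQ. In UE7T-9 SHC4, CEBPB was again at the top (2179 ± 328 normalized counts per kb), followed by CEBPD (812 ± 103), PLIN2 (472 ± 93.1) and PPARG (130.5 ± 13.4), none of which overlapped. CD36 (40.1 ± 27.2), FABP4 (19.5 ± 6.55) and ZNF423 (15.1 ± 2.57) came next, with overlap between CD36 and FABP4 and between FABP4 and ZNF423. CEBPA (5.60 ± 2.58) and LPL (0.416 ± 0.171) were lower still, and ADIPOQ was at 0. In both groups the early factors CEBPB and CEBPD and the general droplet protein PLIN2 thus stood above PPARG, while CEBPA, LPL and ADIPOQ were at the bottom.

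A further 102 genes of the adipogenic pathway were read in 7 lists, of which 96 were listed for the libraries and 91 were tested. None was called by limma, with a smallest adjusted p of 0.137, and 21 of 91 (12 higher and 9 lower) had an unadjusted p below 0.05, a share of 23.1% beside 14.4% of all genes tested. The groups did not overlap for 21 of the 91 genes, also 23.1%, beside 19.3% of all genes. The median log2 fold change was 0.02 over the 91 genes, 0.12 over the 9 lineage genes tested (0.08 without LPL) and -0.00 over all genes. DESeq2 gave an adjusted p below 0.05 to 6 of 82 pathway genes (7.32%, beside 4.14% of all genes). These were LEPR, FABP3, STAT5A and SLC27A1, which were higher in UE7T-9 SHC4, and FABP5 and DGAT2, which were lower. Of these, LEPR, FABP3 and DGAT2 also passed the fold change threshold in DESeq2. None of the 6 passed in limma or edgeR.

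**Figure D3:**
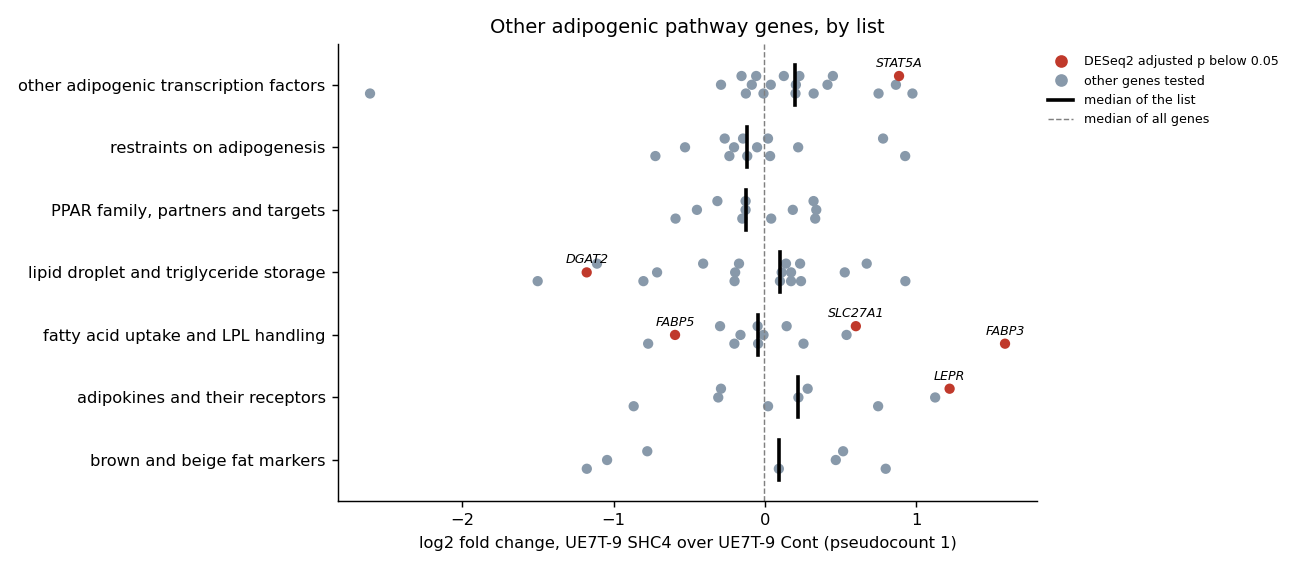
Log2 fold change (limma, UE7T-9 SHC4 over UE7T-9 Cont) of the 91 tested pathway genes in 7 lists, with 1 point per gene, red where the DESeq2 adjusted p was below 0.05, a bar at the median of each list and a dashed line at the median of all genes. The list medians lie between -0.13 and 0.22, and the red points are spread over 4 lists and both directions.

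Among 19 other transcription factors of adipogenesis, the median log2 fold change was 0.20, and 3 were higher and 1 lower at an unadjusted p below 0.05 in limma (21.1%, beside 14.4% of all genes). STAT5A, a signal transducer that acts downstream of growth hormone and prolactin and can promote PPARG expression, had 374, 231 and 221 normalized counts in the controls, against 438, 559 and 497 in UE7T-9 SHC4. It was higher in every UE7T-9 SHC4 library, by a log2 fold change of 0.85 (SE 0.25, DESeq2 adjusted p = 0.0257) or 0.89 (limma adjusted p = 0.162). KLF9, a factor that acts in the middle of adipogenesis, had the highest log2 fold change of the list among genes with a mean of at least 50, at 0.98 (limma adjusted p = 0.253), but UE7T-9 Cont replicate 1 (829) exceeded UE7T-9 SHC4 replicate 1 (723). SREBF1, the most abundant of the list and a regulator of fatty acid synthesis, had means of 3236 ± 1212 and 4156 ± 664 (SD, n = 3) normalized counts. TLE3 was at -0.29 (limma adjusted p = 0.537).

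Of 15 genes that restrain adipogenesis, 14 were listed and 13 tested. Their median log2 fold change was -0.12, and 1 gene in each direction had an unadjusted p below 0.05 (15.4%, beside 14.4% of all genes). The preadipocyte gene DLK1 was not analysed here. ZNF521, which opposes ZNF423 and EBF1, had 599, 459 and 220.3 normalized counts in the controls, against 526, 939 and 848 in UE7T-9 SHC4, with a log2 fold change of 0.93 (SE 0.35, limma adjusted p = 0.282). TRIB3, a pseudokinase that inhibits Akt signaling, had the lowest log2 fold change of the list, -0.72 (SE 0.30, limma adjusted p = 0.310), with overlapping groups. INHBA, which encodes a subunit of activin, was the most abundant, with means of 7906 ± 2438 and 7973 ± 1615 (SD, n = 3) normalized counts.

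Of 13 genes of the PPAR family, its partners and its targets, 11 were tested, and their median log2 fold change was -0.13. In limma, 1 was higher and 1 lower at an unadjusted p below 0.05 (18.2%, beside 14.4% of all genes). The DNA binding partner RXRB was at 0.34 and the target ANGPTL4, an inhibitor of LPL, at -0.59, with limma adjusted p of 0.308 and 0.338. ACADVL, an enzyme of mitochondrial fatty acid oxidation and the most abundant of the list, was at -0.13 (limma adjusted p = 0.707). None passed in DESeq2.

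Of 21 genes of the lipid droplet and triglyceride storage, 19 were tested, with 1 higher and 3 lower at an unadjusted p below 0.05 (21.1%, beside 14.4% of all genes) and a median log2 fold change of 0.10. DGAT2, which catalyses the last step of triglyceride synthesis, had 93.6, 115 and 70.8 normalized counts in the controls, against 43.1, 38.3 and 38.4 in UE7T-9 SHC4. It was lower in every UE7T-9 SHC4 library, at -1.22 (SE 0.32) with a DESeq2 adjusted p of 0.00898 and at -1.18 with a limma adjusted p of 0.148. G0S2, an inhibitor of the lipase ATGL, had 169, 119 and 102 normalized counts in the controls, against 145, 305 and 324 in UE7T-9 SHC4, and its log2 fold change was 0.93 (SE 0.32, limma adjusted p = 0.250). PLIN3, the most abundant of the list, had means of 4073 ± 962 and 4358 ± 692 (SD, n = 3) normalized counts.

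Of 14 genes of fatty acid uptake and LPL handling, 13 were tested. Their median log2 fold change was -0.04. At an unadjusted p below 0.05 in limma, 2 were higher and 1 lower (23.1%, beside 14.4% of all genes). Of the 11 with a DESeq2 adjusted p, 3 passed (27.3%, beside 4.14% of all genes). FABP3, the heart type fatty acid binding protein, had 1247, 994 and 312 normalized counts in the controls, against 1864, 1825 and 3094 in UE7T-9 SHC4. It was higher in every UE7T-9 SHC4 library, at 1.41 (SE 0.41, DESeq2 adjusted p = 0.0229) or 1.59 (limma adjusted p = 0.195). SLC27A1, a fatty acid transporter, had 898, 791 and 700.4 normalized counts in the controls, against 1094, 1247 and 1275 in UE7T-9 SHC4, and was higher at 0.60 (DESeq2 adjusted p = 0.0166, limma adjusted p = 0.148). FABP5 had 375, 477 and 517 normalized counts in the controls, against 323, 289.7 and 286 in UE7T-9 SHC4, and was lower at -0.61 with a DESeq2 adjusted p of 0.04997, just under the threshold. FABP5 has 13 annotated pseudogenes, so its counts may be shared with near copies. FABP3 and FABP5, 2 relatives of FABP4, thus differed in opposite directions in DESeq2. CAV1, the most abundant gene of this list, was at -0.16 (limma adjusted p = 0.806).

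Of 12 adipokines and their receptors, 9 were tested and LEP, RETN and RARRES2 were not analysed here. The median log2 fold change was 0.22. In limma, 5 of 9 (3 higher, 2 lower) had an unadjusted p below 0.05 (55.6%, beside 14.4% of all genes). In DESeq2, 1 of 9 passed on adjusted p (11.1%, beside 4.14% of all genes). LEPR, the leptin receptor and a marker of bone marrow stromal cells, had 862, 658 and 398 normalized counts in the controls, against 1493, 1132 and 1699 in UE7T-9 SHC4. It was higher in every UE7T-9 SHC4 library, at 1.17 (SE 0.29, DESeq2 adjusted p = 0.00344) or 1.22 (limma adjusted p = 0.137). The stromal marker PDGFRB was also higher in every UE7T-9 SHC4 library in DESeq2 (1.23, adjusted p = 0.0171, limma 1.38, adjusted p = 0.162) and THY1 was at 1.15 with overlapping groups (limma adjusted p = 0.234), while 6 other MSC markers ranged from -0.36 to 0.41, and the part of these markers in the LEPR values was not tested. RBP4 was at -0.87 (limma adjusted p = 0.407) and CDH13, an adiponectin receptor and the most abundant of the list, at 0.22 (limma adjusted p = 0.620). Of 8 brown and beige fat markers, 7 were tested, their median log2 fold change was 0.09, and none passed in DESeq2. In limma, 1 was higher and 0 lower at an unadjusted p below 0.05 (14.3%, beside 14.4% of all genes). COX7A1, a subunit of cytochrome c oxidase and the most abundant of them, was at 0.52 (limma adjusted p = 0.257), and DIO2 and TMEM26 were at 0.80 and 0.47 (limma adjusted p of 0.505 and 0.442).

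**Figure D4:**
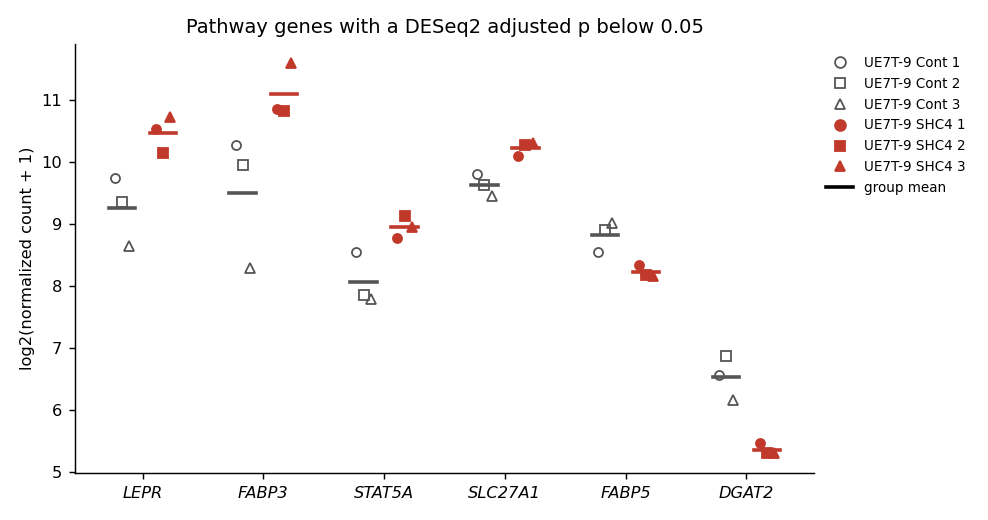
Values of the 6 pathway genes with a DESeq2 adjusted p below 0.05, as log2(normalized count + 1), with 1 symbol per library and a bar at the mean of the log2 values of each group. All UE7T-9 SHC4 libraries lie above the controls for LEPR, FABP3, STAT5A and SLC27A1 and below them for FABP5 and DGAT2, and UE7T-9 Cont replicate 1 is the control nearest to UE7T-9 SHC4 for 5 of the 6 genes.

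The calls in the pathway lists depended on single libraries. Without UE7T-9 Cont replicate 1, limma called KLF9, STAT5A, FABP3 and LEPR higher, as well as CEBPD. The pathway genes among them had log2 fold changes of 1.35, 1.13, 1.97 and 1.47 (adjusted p of 0.0194, 0.00571, 0.0268 and 0.00934). In that fit, limma called 3.06% of all genes in either direction and 1.59% higher. Without UE7T-9 Cont replicate 3, limma gave lower values of 0.59 for KLF9, 0.75 for STAT5A, 0.98 for FABP3 and 0.92 for LEPR, with adjusted p of 0.501, 0.348, 0.280 and 0.245. In DESeq2, LEPR passed on adjusted p without any library other than UE7T-9 SHC4 replicate 3, and DGAT2 passed without UE7T-9 Cont replicate 1, UE7T-9 Cont replicate 3 or UE7T-9 SHC4 replicate 1. FABP3 passed without UE7T-9 Cont replicate 1 or 3, and FABP5 only without UE7T-9 Cont replicate 1. STAT5A and SLC27A1 passed without UE7T-9 Cont replicate 1 or UE7T-9 SHC4 replicate 1. No pathway gene passed without UE7T-9 SHC4 replicate 3.

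The markers of the other fates of MSCs gave no call in limma. The osteoblast markers summed to 2215 to 18777 normalized counts in UE7T-9 Cont and 944 to 1397 in UE7T-9 SHC4. Their most abundant gene by mean was SPP1 (osteopontin), at 1040.1, 10458 and 17769 in the controls, against 349.8, 708 and 943 in UE7T-9 SHC4. ALPL, at 782, 211 and 625 in the controls, against 361, 176 and 92.0, exceeded SPP1 in UE7T-9 SHC4 replicate 1, and the osteoblast factor SP7 was at or near 0 in every library. The chondrocyte markers summed to 1524 to 12105 and 29701 to 54879. The cartilage proteoglycan ACAN made up most of this in every library but UE7T-9 Cont replicate 3, where it was at 695 and the chondrocyte factor SOX9 at 742. SOX9 had a log2 fold change of 0.00 (limma adjusted p = 0.998) and MATN3 of -0.45 (limma adjusted p = 0.439). COL2A1 had 2 reads in each control and 1 read in each UE7T-9 SHC4 library. The higher sum in UE7T-9 SHC4 was thus that of ACAN, while the 4 chondrocyte genes tested had their median at -0.23. For SPP1 every UE7T-9 SHC4 library was below every control and for ACAN above, with adjusted p of 0.187 and 0.180 in limma and 0.00959 and 0.114 in DESeq2.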

How the data were processed

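RNA from 3 libraries of UE7T-9 SHC4 and 3 of UE7T-9 Cont was sequenced by Novogene (Illumina NovaSeq). Libraries were grouped and numbered as labelled. For each gene, the authors deposited 1 signal value per library, the normalized count. The submitters' processing notes name HISAT2 2.0.5, featureCounts 1.5.0-p3 and DESeq2. The genome build, annotation and strand setting are not given in the sources used here, so gene positions and exon lengths were taken from GENCODE 29 by Ensembl identifier (all 28181 matched). Values were whole multiples of the value of 1 read (100% within 0.01 reads), and the counts were recovered by division.

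limma 3.58.1 (lmFit, then eBayes with trend) was run in R 4.3.3 on log2(value + 1) for genes with a mean of at least 1, which left out 5141 genes, with Benjamini-Hochberg adjustment over all genes tested. The design had named edgeR for counts and limma for normalized values, and the latter applied. DESeq2 1.42.0 and edgeR 4.0.16 (quasi-likelihood) on the recovered reads, TMM and library size scaling, no filter, a mean of at least 10, pseudocount 0.1, no fold change threshold, a replicate block and leaving out each library were alternatives. DESeq2 with a library left out and the settings for pathway genes were added after the data were seen. The tests were tested on simulated data. The lineage genes, pathway lists and rules were chosen with earlier results of these data known. Besides the lineage genes and SHC4, the text names pathway genes past an adjusted p of 0.05 in limma or DESeq2, the most abundant gene of each list, those with the highest and lowest log2 fold change at a mean of at least 50, and markers of other cell types. Genes outside this rule were picked with their values in view. Motifs were searched on both strands of the 250 bases before each RefSeq start.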

Additional observations from a re-analysis of the deposited data

How the results depend on the processing

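In limma, the lineage genes called higher numbered 0 to 1 when libraries were left out in turn, the 1 being CEBPD at 1.47 without UE7T-9 Cont replicate 1, and none was called lower under any alternative. In DESeq2 with libraries left out, on adjusted p alone, lineage genes higher numbered 0 to 1 and lower 0 to 1, both (CEBPD and FABP4) without UE7T-9 Cont replicate 1. Of the pathway genes, 0 were called higher and 0 lower by limma, while DESeq2 called 2 higher and 1 lower, and leaving out libraries gave 0 to 4 higher. On DESeq2 adjusted p alone, 4 pathway genes were higher and 2 lower, and leaving out libraries gave 0 (without UE7T-9 SHC4 replicate 3) to 13 and 0 to 4 (both without UE7T-9 Cont replicate 1). Over all genes, limma called 12 higher and 2 lower. DESeq2 called 170 and 185, TMM normalization gave 20 and 4, library size scaling 19 and 5, no filter 31 and 9, edgeR 1 lower, pseudocount 0.1 gave 1 lower, and leaving out libraries gave 1 (without UE7T-9 SHC4 replicate 2 or 3) to 367 higher and 0 (without UE7T-9 Cont replicate 2) to 339 lower, both upper values without UE7T-9 Cont replicate 1.

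Direction reversed for PLIN2 without UE7T-9 Cont replicate 2 (0.11) and for ZNF423 without UE7T-9 Cont replicate 3 (0.014). Leaving out libraries gave -0.42 to 0.11 for PLIN2 and -0.27 to 0.014 for ZNF423. Direction also reversed for INHBA under library size scaling (-0.069) and when libraries were left out (-0.11 to 0.28), and for PLIN3 when libraries were left out (-0.015 to 0.30). The cause was not tested. The median over 9 lineage genes was -0.15 in DESeq2, but without LPL it was 0.07 there, 0.08 in limma, -0.03 under library size scaling and -0.12 to 0.26 when libraries were left out. Library size scaling moved the median of all genes to -0.10.

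Deviations from the group means correlated between same-numbered libraries at 0.148, 0.013 and -0.00696, so the numbers were not taken as pairs. A replicate block in limma gave 25 calls higher and 14 lower over all genes, with no lineage or pathway gene among them. LPL and ADIPOQ were limited by depth, and CEBPA by its few reads.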

Other observations

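Some pathway genes of the mature adipocyte were near the limit of detection, as were LPL and ADIPOQ. These genes were chosen after their values were seen. PLIN1, which coats the large droplets of fat cells, had 4.87, 3.53 and 6.89 normalized counts in the controls, against 1.76, 2.50 and 1.16 in UE7T-9 SHC4. SLC2A4, the insulin-regulated glucose transporter, was at 9.75, 4.71 and 0.984 and at 1.76, 1.66 and 2.33. UCP1, the uncoupling protein of brown fat, was at 0.975, 1.18 and 4.92 and at 1.76, 0.832 and 0. Most of these values were at or close to the 3 reads that a count of 0 allows, and no fold change is given.

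The adiponectin receptors ADIPOR1 and ADIPOR2 were abundant although ADIPOQ was barely detected. ADIPOR1 had means of 2661 ± 274 and 2169 ± 75.6 (SD, n = 3) normalized counts in UE7T-9 Cont and UE7T-9 SHC4, and ADIPOR2 of 2424 ± 239 and 1954 ± 133 (SD, n = 3), with limma adjusted p of 0.328 and 0.313. Of the 91 pathway genes tested, 9 were higher and 12 lower without overlap between the groups, beside 9.13% and 10.2% of all genes. Those not yet named were, on the higher side, NR3C1 (log2 fold change 0.23), LMF1 (0.26) and CFD (1.13), and on the lower side ZNF467, NCOR1 (-0.05), SIRT1 (-0.20), CPT1A (-0.15), LIPE (-0.71), ABHD5 (-0.41) and DGAT1 (-0.20), besides PLIN1, ADIPOR1 (-0.29) and ADIPOR2 (-0.31). None of them passed in limma. ZNF467 had 12.7, 3.53 and 5.90 normalized counts in the controls, against 0.879, 0 and 0 in UE7T-9 SHC4.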
